A study of Homo sapiens with 39 samples.

Results

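The replication-dependent histone genes described here are the protein-coding rows of the count table whose symbols begin with HIST1, HIST2, HIST3 or HIST4, or whose current names belong to the matching H1, H2A, H2B, H3 and H4 clusters. This rule gave 37 genes of 57773 identifiers: 6 for linker histone H1, 9 for H2A, 11 for H2B, 7 for H3 and 4 for H4. Of these, 23 lie on chromosome 6, 12 on chromosome 1, 1 on chromosome 12 and 1 on chromosome 21. The table covered part of the family, since 34 of the 70 protein-coding symbols that RefSeq lists under the same names were matched by a member, and the others were not analysed here. The older HIST symbols are used throughout, as the rule uses them.

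These genes supply the histones that package newly made DNA. They are transcribed in S phase from clusters that gather the activator NPAT and the factor CASP8AP2 (FLASH) in the histone locus body, and their transcripts carry no introns. Instead of a poly(A) tail, the mRNA ends just after a stem-loop that is bound by SLBP and cut with the help of the U7 snRNP, of which LSM11 is a part. Several of the genes can also give a longer, polyadenylated transcript that runs past the stem-loop, a form known from differentiated or non-dividing cells. Replication-independent variants such as H3.3, H2A.Z and H1.X are encoded elsewhere, have ordinary polyadenylated mRNAs and are made throughout the cell cycle.

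The libraries were made from JJN3, an established human multiple myeloma line, grown in RPMI medium with 10% FCS. GSK-J4 is an inhibitor of the KDM6 family of histone H3K27 demethylases, ZnSO4 supplies zinc, and DMSO is the vehicle control. There were 13 groups of 3 libraries, 39 in all: GSK-J4, ZnSO4 and DMSO at 1, 3, 6 and 24 h each, and T0, cells of the same line taken at time 0. Neither the doses nor the way mRNA was separated from ribosomal RNA (selection for poly(A) tails or depletion) is stated in the labels. That choice bears on every value below, because a selection for poly(A) tails draws histone mRNAs that end at the stem-loop only poorly. Library totals ran between 4347745 and 10695671 counts with a median of 6010529, so that 3 counts, the floor used for a gene at 0, stood for 0.69 CPM (counts of a gene in every 1000000 counts) in the shallowest library and 0.2805 CPM in the deepest.

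The 7 plasma cell markers checked were present in every library, with medians from 59.2 CPM for SLAMF7 to 806 CPM for IRF4, while the T cell genes CD3D and CD3E and the myeloid genes CD14 and LYZ stayed at or below 1.25 CPM. Of the 2 epithelial markers EPCAM was present (30.8 to 62.6 CPM) and KRT18 was low (0.164 to 2.225 CPM), and the fibroblast genes COL1A1 and COL1A2 reached 32.7 and 33.2 CPM. Among mature B cell genes, MS4A1 reached 6.01 CPM and PAX5 reached 3.15 CPM. Nothing in the labels ties the 3 libraries of a group to separate cultures, so a p-value here speaks of the spread among libraries, and that spread may be technical. In bulk libraries, fewer cells expressing a gene and less of its RNA per cell cannot be told apart.

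If the libraries were selected for poly(A) tails, which is not stated, the 3′ end bears on which histone transcripts they hold. The stem-loop was therefore read from the GENCODE 29 transcripts of the members. It is shown here in its DNA letters, with the 6 paired bases of each arm in capitals and the loop in lower case. The H2A, H2B and H3 members with a match had one of 2 forms, and the H4 members had another:
HIST1H2AC, HIST2H2BE and others: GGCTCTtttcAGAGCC
HIST1H2BD, HIST1H2BC and HIST3H3: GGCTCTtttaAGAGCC
HIST1H4H, HIST4H4 and HIST1H4J: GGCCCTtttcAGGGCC
Annotated transcripts that run far past this element are those a poly(A) tail would allow. The annotation holds such transcripts for HIST2H2BE, with 1729 bases after the stem-loop, for HIST1H2AC with 1114 and 1128 bases, for HIST1H4H with up to 1655 bases and for HIST4H4 with up to 1510 bases. HIST1H2BN has up to 377 bases. Members with few or no counts have such transcripts as well. They are HIST3H2BB (1917 bases, 0 counts), HIST2H2BF (1479, 28), HIST2H3C (1154, 15), HIST2H3A (1154, 11) and HIST3H2A (390, 0). HIST1H2BC has 1 transcript that runs 116 bases past the stem-loop and 1 without a match. HIST1H2AG has 1 transcript of 2250 bases, and HIST1H2BJ has 3 of 381 to 950 bases. None of these holds a match, so no distance past the stem-loop could be read for them. HIST1H1C and HIST1H2BK are annotated with 642 and 381 bases and no stem-loop match, so these models hold little beyond the coding part, and their 3′ ends could not be read here.

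In 3 places an H2A and an H2B gene that both gave enough counts to be tested are transcribed away from each other out of a shared stretch of DNA. The stretch is 246 bases between the starts of HIST1H2AC and HIST1H2BC, 248 bases between HIST1H2AG and HIST1H2BJ, and 236 bases between HIST2H2AC and HIST2H2BE. The 3 windows are printed because the genes on both their sides were tested, and their fold changes at 24 h are set side by side further on. Each is the RefSeq promoter window of the H2A gene (GRCh38.p14, plus strand), from 250 bases before to 50 bases after its start, and it also spans the start of the H2B gene on the other strand. Capitals mark CCAAT boxes, the TATA box letters TATAAA, and the octamer bound by POU2F1, ATTTGCAT. Each was searched on both strands, and TATAAA matches on opposite strands can overlap.
HIST1H2AC and HIST1H2BC, chr6:26123922-26124221: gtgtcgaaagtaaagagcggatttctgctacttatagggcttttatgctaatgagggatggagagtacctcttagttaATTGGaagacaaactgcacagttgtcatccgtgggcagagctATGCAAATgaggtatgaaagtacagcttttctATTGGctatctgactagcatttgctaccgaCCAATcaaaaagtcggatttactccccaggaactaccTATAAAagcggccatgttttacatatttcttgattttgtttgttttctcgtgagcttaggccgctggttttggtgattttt
HIST1H2AG and HIST1H2BJ, chr6:27132793-27133092: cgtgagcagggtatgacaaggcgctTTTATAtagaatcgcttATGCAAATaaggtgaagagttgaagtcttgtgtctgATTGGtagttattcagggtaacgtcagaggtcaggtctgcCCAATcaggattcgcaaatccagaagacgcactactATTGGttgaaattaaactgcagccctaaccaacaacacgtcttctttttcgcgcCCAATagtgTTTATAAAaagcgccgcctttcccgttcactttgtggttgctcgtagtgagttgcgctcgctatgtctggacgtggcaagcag
HIST2H2AC and HIST2H2BE, chr1:149886668-149886967: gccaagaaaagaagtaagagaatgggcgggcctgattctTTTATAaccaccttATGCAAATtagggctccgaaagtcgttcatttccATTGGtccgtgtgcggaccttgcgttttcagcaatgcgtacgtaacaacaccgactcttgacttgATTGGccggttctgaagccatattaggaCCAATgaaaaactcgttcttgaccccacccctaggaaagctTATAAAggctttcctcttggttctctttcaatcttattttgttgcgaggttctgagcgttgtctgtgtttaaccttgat

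All 3 windows hold several CCAAT matches (3, 4 and 3) and 1 octamer each. The RefSeq table held 35 member windows, and a gene can have more than 1 window or none. Some cover much the same DNA, such as the 2 sides of a shared H2A and H2B stretch. HIST1H2AD and HIST1H3D share 1 listed window. The shares are therefore not of separate promoters. Of the 35 windows, 91.4% held CCAAT, 71.4% held TATAAA and 40.0% held ATTTGCAT on either strand. Of all 35116 windows in the table, 34.61%, 11.53% and 1.77% did. CCAAT was found in every H1, H2A, H2B and H3 window and in 0 of 3 H4 windows. The octamer was found in 75.0% of 8 H2A windows and 58.3% of 12 H2B windows, and in none of 6 H1 windows. A match describes the letters of a window and is not a binding site.

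A few genes carried nearly all histone counts. The members held 98585 counts over the 39 libraries, of which HIST1H2BK (H2B) gave 35.82%, HIST1H1C (H1) 31.08% and HIST1H2AC (H2A) 16.78%, or 83.69% together. By type, H2B held 46.68% of the counts, H1 31.65%, H2A 18.01%, H4 3.255% and H3 0.4118%. Within a type the spread was as uneven: HIST1H1C gave 98.22% of the H1 counts, HIST1H2AC 93.21% of H2A, HIST1H3D 85.22% of H3, HIST1H4H 82.24% of H4 and HIST1H2BK 76.74% of H2B. Longer transcripts collect more counts, so these shares do not rank the genes by number of mRNA molecules. Near-identical copies, such as HIST1H2BK and H2BFS or the H4 genes, share sequence, and how reads common to several copies were counted is not given in the sources used here.

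Of the 37 members, 32 had a count in some library, 14 passed the filter on low counts (at least 10 counts in a library of median depth, or 1.664 CPM, in 3 or more libraries) and entered the tests, and 23 did not. The 14 were HIST1H1C and HIST1H1E of H1; HIST1H2AC, HIST1H2AG and HIST2H2AC of H2A; HIST1H2BK, HIST2H2BE, HIST1H2BD, HIST1H2BC, HIST1H2BJ and HIST1H2BN of H2B; HIST1H3D of H3; and HIST1H4H and HIST4H4 of H4. They held 99.13% of the members' counts. HIST1H1E and HIST2H2AC reached the filter's cutoff in 0 of the 30 libraries before 24 h and passed only through their 24 h libraries, HIST2H2AC through 3 of them, so a difference of these 2 genes with time was built into their selection. The other 12 passed through libraries taken before 24 h.

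Summed over a type, histone counts were higher in DMSO at 24 h than at T0 in H1, H2B and the thinly counted H3. Before 24 h the sums of H1, H2A and H2B were highest with ZnSO4 at 6 h. The 37 members together took 533, 545 and 575 CPM in DMSO at 24 h, against 364, 299 and 284 at T0, and every 24 h library lay above every T0 library. H1 took 203 ± 11.01 CPM in DMSO at 24 h and 91.5 ± 17.6 at T0 (SD, n = 3 each). H2B took 264 ± 8.32 in DMSO at 24 h and 146 ± 19.2 at T0. Neither type overlapped between these groups.

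Of the other types H2A moved less, H4 went the other way, and H3 was higher on few counts. H2A stood at 72.9 ± 2.99 CPM in DMSO at 24 h and 65.0 ± 6.45 at T0 (SD, n = 3 each), with overlapping libraries. H4 was at 9.35, 7.84 and 10.75 in DMSO at 24 h, against 12.8, 11.1 and 11.96 at T0, so that all 24 h libraries were lower. H3 was at 2.04, 1.48 and 1.91 in DMSO at 24 h, against 0.561, 1.21 and 0.811 at T0. All its 24 h libraries were higher, at a level of few counts a library.

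Over the 10 groups before 24 h, mean sums ran between 81.1 CPM (GSK-J4 at 1 h) and 122 (ZnSO4 at 6 h) for H1, and between 53.7 (DMSO at 1 h) and 92.0 (ZnSO4 at 6 h) for H2A. For H2B they ran between 146 (T0) and 204 (ZnSO4 at 6 h), for H3 between 0.860 (T0) and 2.01 (ZnSO4 at 1 h), and for H4 they reached 15.1 (GSK-J4 at 6 h), with 10.8 to 11.2 in the 3 libraries of the lowest group, DMSO at 6 h. ZnSO4 at 6 h thus held the highest mean of these groups in 3 of the 5 types. At 24 h the means were 207 with GSK-J4, 281 with ZnSO4 and 203 with DMSO for H1, 81.9, 96.3 and 72.9 in the same order for H2A, and 233, 267 and 264 for H2B. For H4 they were 11.5, 12.4 and 9.32.

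The sums are described without a test, and they are shares of the library total. TMM factors adjust for the changed composition of the 24 h libraries. Scaled by them, the means in DMSO at 24 h were 231 for H1, 301 for H2B and 10.6 for H4, and at T0 89.4, 143 and 11.7. H2A then stood at 83.1 ± 3.75 CPM in DMSO at 24 h and 63.5 ± 6.19 at T0 (SD, n = 3 each), farther apart than as shares of library totals. The difference in H4 was then smaller than the SD of 1.725 in DMSO at 24 h.

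**Figure D1:**
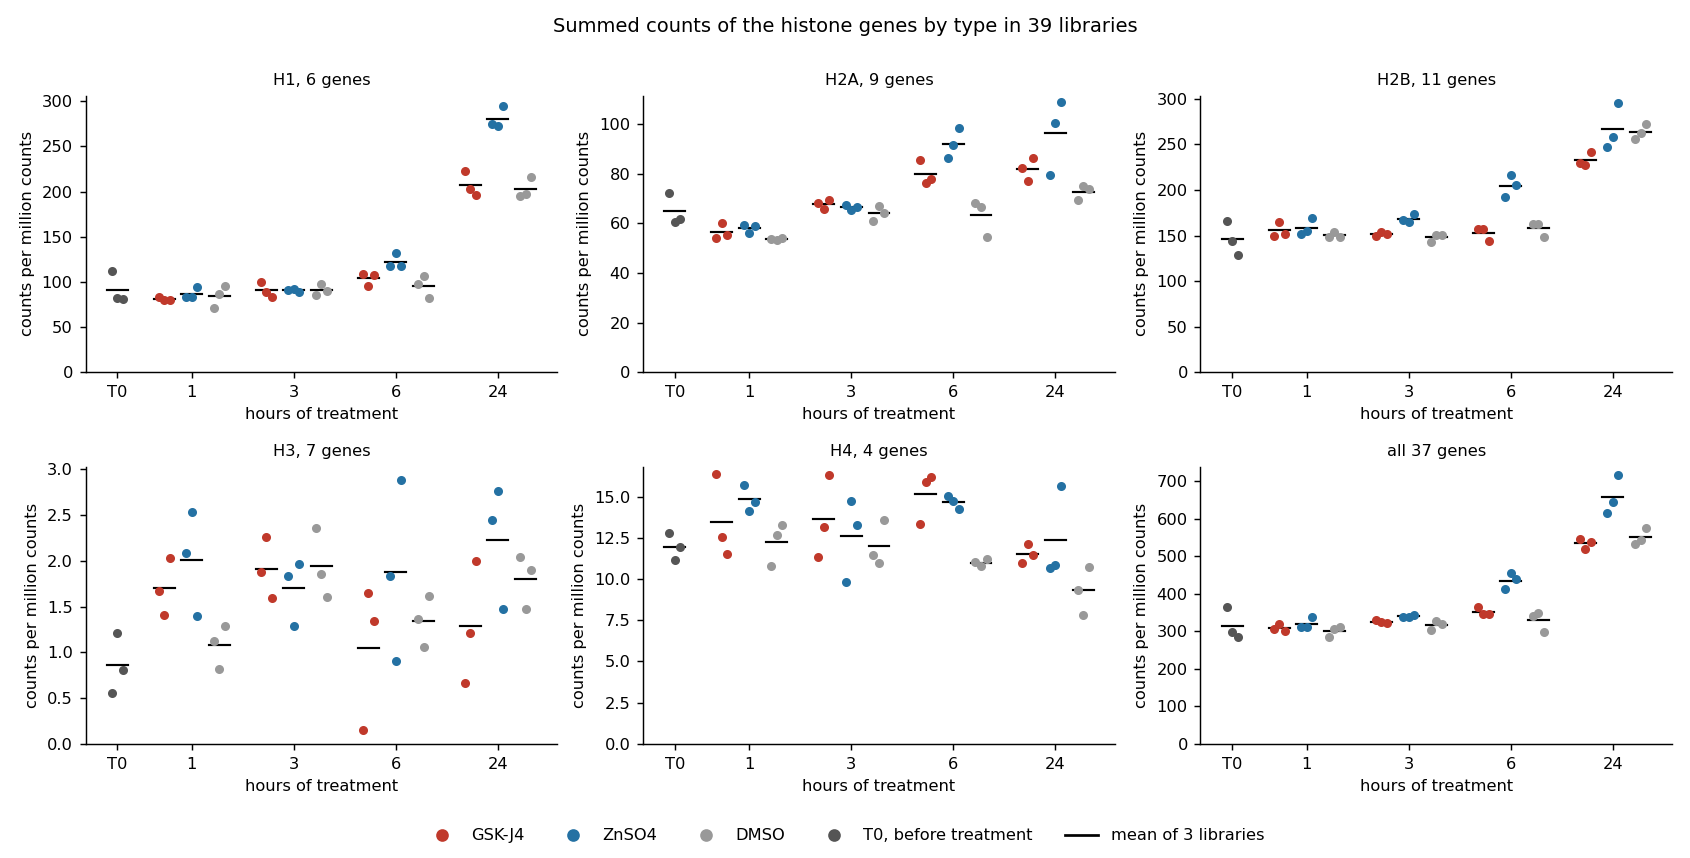
Summed counts of the members of each histone type, in CPM of the library total, in 39 libraries. The x axis gives T0 and the hours of treatment, with GSK-J4, ZnSO4 and DMSO from left to right at each time; points are libraries and lines the means of 3. H1 and H2B stand higher in all 9 libraries at 24 h, and at 6 h the H2B sums are highest with ZnSO4 (mean 204 CPM).

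DMSO against T0 gives how far the genes in vehicle cultures differed from the start. No group without an added agent was taken after T0, so vehicle and time in culture cannot be told apart in it. Before 24 h no member passed the test, edgeR's quasi-likelihood F-test with Benjamini-Hochberg adjustment over 14460 genes at an adjusted p under 0.05. At 1 h this was 0 of 14 (2 at an unadjusted p under 0.05, 0 by DESeq2), against 0.0346% of all genes called. At 3 h it was 0 of 14 (1 unadjusted, 0 by DESeq2), against 0.0968%, and at 6 h 0 of 14 (3 unadjusted, 0 by DESeq2), against 0.0138%. DESeq2 gave an adjusted p to only 3527, 4087 and 2966 genes at 1, 3 and 6 h. A count of 0 by DESeq2, here and below, leaves out members without an adjusted p.

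At 24 h in DMSO 10 of the 14 members were higher than at T0 and 0 were lower, while of all genes 30.5% were higher and 32.7% lower. Of the 12 members that passed the filter through earlier libraries, 8 were higher and 0 lower. With library totals in place of TMM factors 7 of the 14 were higher and 1, HIST1H4H, was lower, the split over all genes was 2769 higher and 6519 lower, and the median log2 fold change of all genes moved to -0.24, beside -0.02 with TMM factors. The median over the 14 members was 1.10 on the log2 scale with TMM factors. Over the 12 members that passed the filter through earlier libraries the median was 0.86. The levels of single genes below are TMM-scaled CPM, and each log2 fold change (log2FC) is given ± SE.

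Among the H1 genes, the main gene rose at 24 h, and the rise of a rare one was built into its selection. HIST1H1C (ENSG00000187837, encoding H1.2) had 215, 220.0 and 242 CPM in DMSO at 24 h, against 108, 79.9 and 77.9 CPM at T0. All 3 DMSO libraries lay above all T0 libraries (log2FC 1.34 ± 0.08, adjusted p = 8.394e-22). HIST1H1E (ENSG00000168298, encoding H1.4) had 5.70, 3.62 and 5.32 CPM in DMSO at 24 h, against 0.137, 0.395 and 0.394 CPM at T0. The groups did not overlap (log2FC 3.93 ± 0.49, adjusted p = 2.475e-10), although T0 rests on 6 counts in all and the gene passed the filter only through the 24 h libraries.

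The H2A genes moved little by comparison. HIST1H2AC (ENSG00000180573) had 73.3, 80.35 and 79.3 CPM in DMSO at 24 h, against 65.7, 55.6 and 58.2 CPM at T0, a rise without overlap (log2FC 0.37 ± 0.08, adjusted p = 7.348e-05) that did not pass with library totals (adjusted p = 0.104). HIST1H2AG had 2.17, 3.36 and 3.44 CPM in DMSO at 24 h, against 3.56, 2.77 and 1.97 CPM at T0, and these values overlapped (log2FC 0.07 ± 0.28, adjusted p = 0.848). HIST2H2AC passed at log2FC 1.75 ± 0.72 (adjusted p = 0.0292) on 19 counts in DMSO at 24 h and 5 at T0, with overlapping libraries. Its call was lost with library totals, with no filter, with DESeq2, with only the 2 groups in the fit and without any of 4 libraries (T0 replicates 2 and 3, DMSO replicates 1 and 3), where log2FC ran between 1.14 and 2.36.

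The H2B genes showed the widest range of differences between DMSO at 24 h and T0. HIST1H2BC (ENSG00000180596) had 33.8, 40.3 and 40.7 CPM in DMSO at 24 h, against 2.88, 2.24 and 2.17 CPM at T0. Every DMSO library was far above every T0 library, a 15.5-fold difference (log2FC 3.95 ± 0.18, adjusted p = 3.679e-29). HIST2H2BE (ENSG00000184678) had 35.3, 33.1 and 37.9 CPM in DMSO at 24 h, against 4.11, 4.61 and 4.53 CPM at T0. This was again a separation without overlap (log2FC 3.00 ± 0.16, adjusted p = 1.29e-25).

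The remaining H2B genes were spread between these and no detectable change. HIST1H2BN (ENSG00000233822) had 7.88, 9.04 and 10.2 CPM in DMSO at 24 h, against 1.78, 1.45 and 2.76 CPM at T0 (log2FC 2.22 ± 0.27, adjusted p = 8.367e-11). It overlaps HIST1H2AK on the opposite strand in the annotation, over 393 of its 5477 exon bases. The kit and labels give no strand setting, so reads of the 2 genes cannot be told apart in that stretch. How many of its counts lie there is not known. HIST1H2BJ had 9.91, 7.88 and 8.92 CPM in DMSO at 24 h, against 6.02, 4.22 and 2.56 CPM at T0 (log2FC 1.00 ± 0.22, adjusted p = 5.118e-05). HIST1H2BK (ENSG00000197903), the gene with most counts, had 191, 195 and 203 CPM in DMSO at 24 h, against 135.7, 118 and 102.5 CPM at T0 (log2FC 0.71 ± 0.07, adjusted p = 1.973e-14). None of these 3 genes overlapped between the groups. HIST1H2BD had 12.1, 12.1 and 12.2 CPM in DMSO at 24 h, against 11.2, 10.15 and 9.27 CPM at T0, and did not pass the test although the libraries did not overlap (log2FC 0.24 ± 0.15, adjusted p = 0.161).

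The make-up of the H2B counts was different at 24 h. HIST1H2BC and HIST2H2BE together held between 21.1% and 27.85% of a library's H2B counts in the 9 libraries at 24 h (median 24.0%), against 4.04% to 7.98% in the 30 earlier ones (median 5.49%). HIST1H2BK held 62.5% to 70.1% at 24 h and 75.9% to 84.1% before. Neither range overlapped with its counterpart.

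H3 and H4 gave less. HIST1H3D was the single H3 gene past the filter, and it had 1.765, 1.29 and 1.88 CPM in DMSO at 24 h, against 0.548, 0.791 and 0.789 CPM at T0 (log2FC 1.195 ± 0.52, adjusted p = 0.0385). Its call rests on 35 and 14 counts, was lost with library totals (adjusted p = 0.0961), with no filter (0.0777) and without any of 5 of the 6 libraries, all but DMSO replicate 2, and the gene lies within a longer annotated gene on its own strand (AL031777.3). HIST1H4H had 8.15, 6.59 and 9.08 CPM in DMSO at 24 h, against 9.445, 8.96 and 10.45 CPM at T0, which overlapped (log2FC -0.28 ± 0.18, adjusted p = 0.168), although it passed as lower with library totals (log2FC -0.497 ± 0.18, adjusted p = 0.0116). HIST4H4 was at 1.29 ± 0.518 CPM in DMSO at 24 h and 1.56 ± 0.713 CPM at T0 (SD, n = 3 each; log2FC -0.37 ± 0.45, adjusted p = 0.479).

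**Figure D2:**
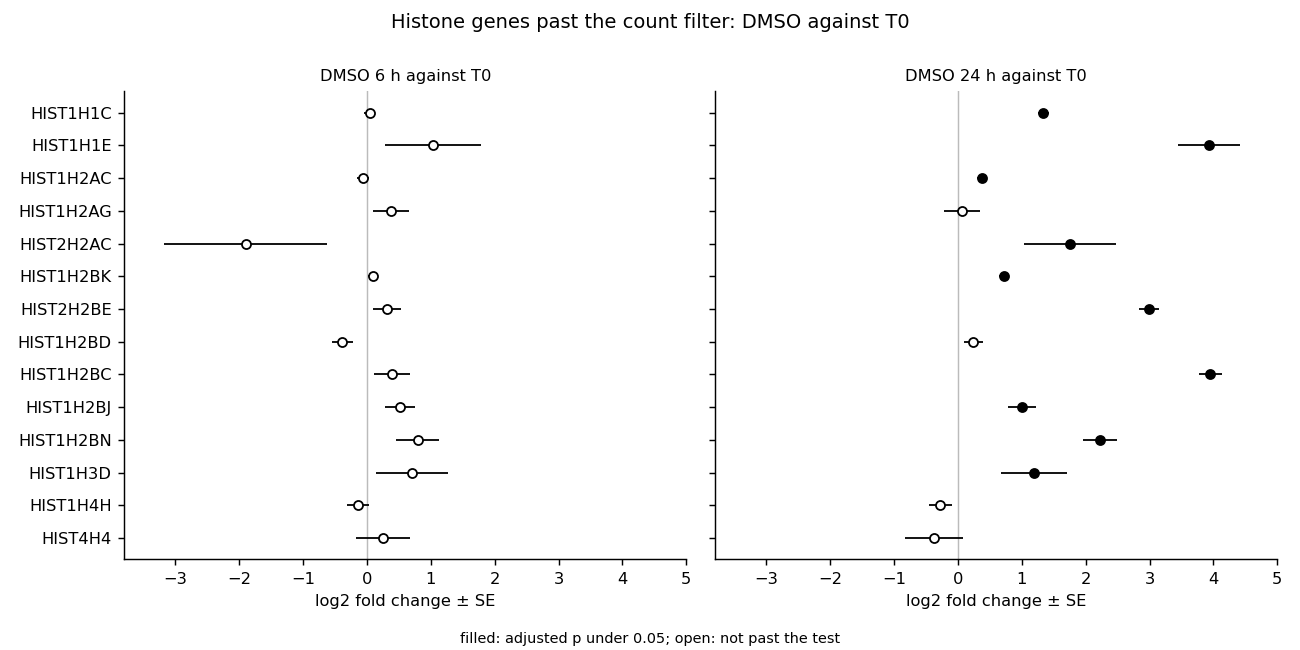
Log2 fold change ± SE of the 14 members past the count filter for DMSO at 6 h against T0 (left) and DMSO at 24 h against T0 (right); filled points had an adjusted p under 0.05. No point is filled at 6 h, and at 24 h HIST1H2BC (3.95), HIST1H1E (3.93) and HIST2H2BE (3.00) lie farthest to the right while both H4 genes lie left of 0 unfilled. HIST1H1E and HIST2H2AC passed the filter only through their 24 h libraries.

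**Figure D3:**
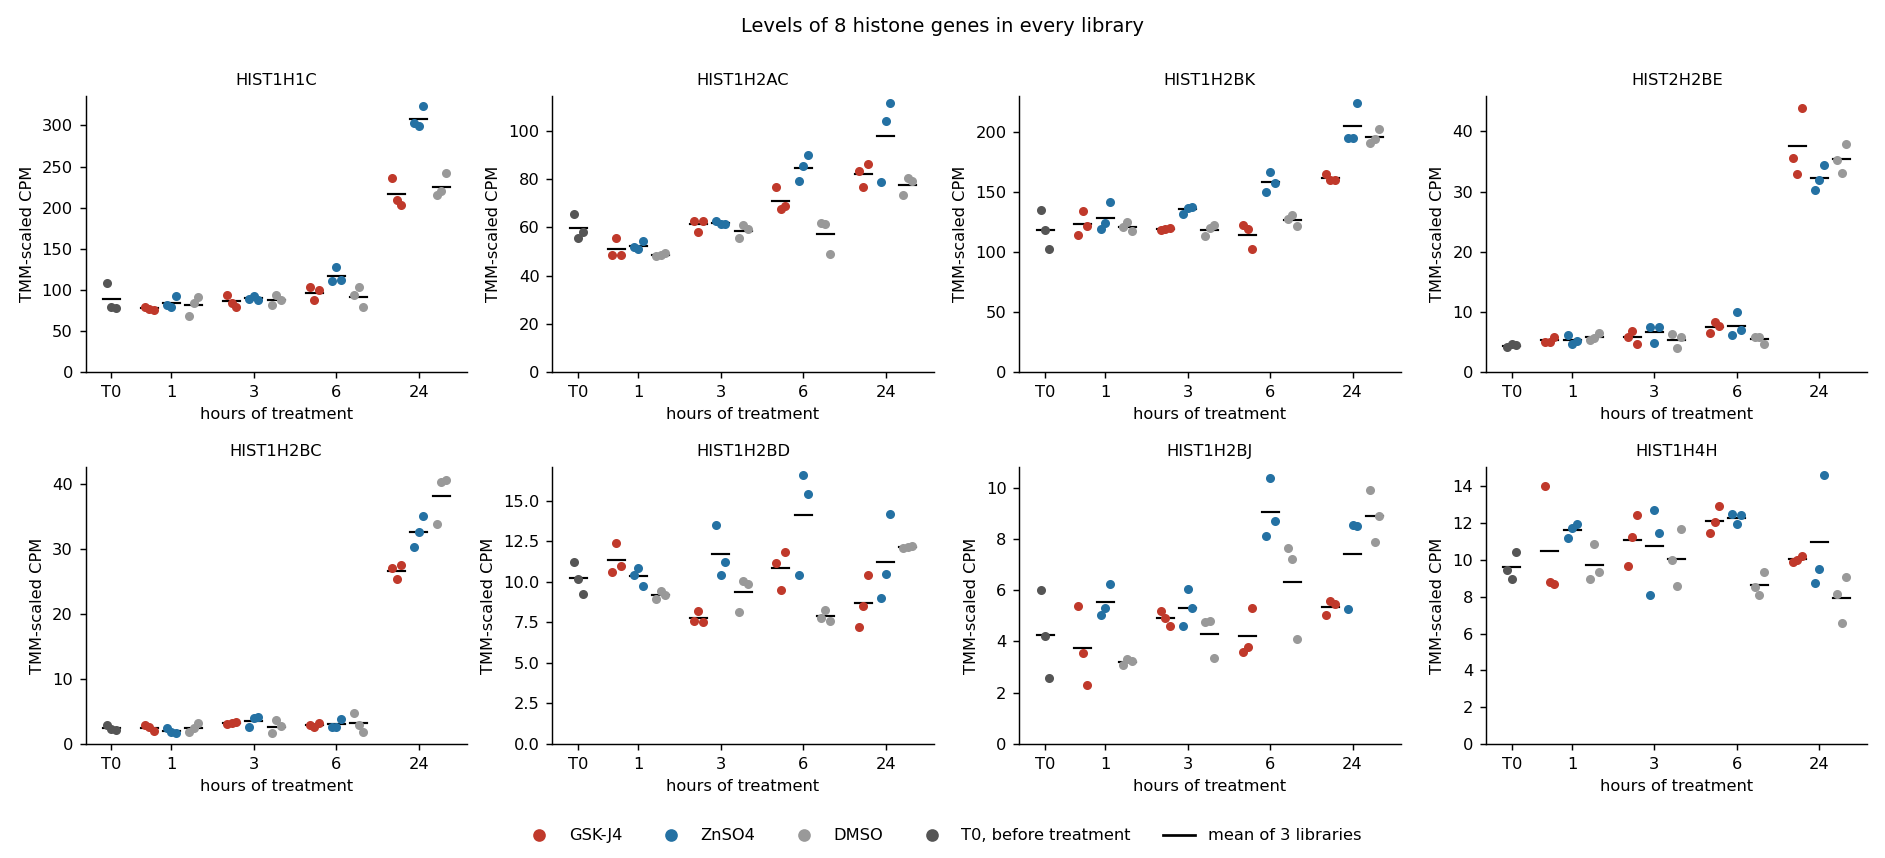
TMM-scaled CPM of 8 members in each of 39 libraries, with T0 and the hours of treatment on the x axis and GSK-J4, ZnSO4 and DMSO from left to right at each time; lines are means of 3 libraries. HIST2H2BE and HIST1H2BC reach at most 9.95 and 4.70 CPM before 24 h and lie at 30.3 to 44.0 and 25.4 to 40.7 CPM in all arms at 24 h, whereas HIST1H4H spans 6.59 to 14.6 CPM at 24 h and 8.08 to 14.02 CPM before.

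The fold changes of genes that share a stretch of promoter DNA, whose letters are printed above, can be set side by side. Across the 246 bases between them, HIST1H2BC had a log2FC of 3.95 ± 0.18 and HIST1H2AC one of 0.37 ± 0.08 in DMSO at 24 h against T0. Between HIST1H2BJ and HIST1H2AG the values were 1.00 ± 0.22 and 0.07 ± 0.28. Between HIST2H2BE and HIST2H2AC they were 3.00 ± 0.16 and 1.75 ± 0.72, where the H2A gene rests on 5 counts at T0, has a wide error and lost its call under most other settings. The difference between the sides was not tested.

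Other RNAs that lack a poly(A) tail also differed at 24 h. Of 14 such RNAs looked for, 7 were matched in the table, and their sum was 33.9, 36.03 and 34.4 CPM in DMSO at 24 h, against 8.98, 7.65 and 8.31 at T0. On the TMM scale the sum averaged 39.7 CPM in DMSO at 24 h and 8.12 CPM at T0. Most of it at 24 h was RNU5A-1, a spliceosomal snRNA, with, on that same scale, 36.5, 38.4 and 36.5 CPM in DMSO at 24 h, against 0.821, 0 and 0.394 CPM at T0. The snoRNA SNORA73B went the other way, with 1.09, 0.904 and 1.09 CPM in DMSO at 24 h, against 7.53, 6.86 and 5.72 CPM at T0. Of the 7 mean levels 4 were higher in DMSO at 24 h and 3 were lower, none being at 0 in both groups. Apart from RNU5A-1 and SNORA73B, these directions rest on few counts. In DMSO at 24 h and at T0, TERC had 4 and 3 counts, VTRNA1-1 1 and 1, and RMRP 4 and 9. In the same order RNU4-2 had 7 and 2, and SNORD3A 16 and 3. As a share of library totals, the sum at 24 h was 25.9 to 33.6 CPM with GSK-J4 and 49.9 to 51.3 with ZnSO4. Replicate 2 of ZnSO4 at 1 h stood apart with 55.9, against 8.91 and 6.73 in the other 2 libraries of its group, while its histone sum of 311 lay with theirs (313 and 338). The part of this class of RNAs in the histone result was not tested.

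In DMSO at 24 h, of 17 tested genes that transcribe or process histone mRNA 4 were higher and 11 lower than at T0, against 30.5% and 32.7% of all genes, with a median log2FC of -0.44 beside -0.02 over all genes. NPAT had 26.5, 26.2 and 20.97 CPM in DMSO at 24 h, against 52.7, 54.3 and 50.7 CPM at T0 (log2FC -1.09 ± 0.09, adjusted p = 5.769e-16). CASP8AP2 stood at 31.5 ± 2.86 CPM in DMSO at 24 h and 79.5 ± 15.3 at T0 (SD, n = 3 each; log2FC -1.35 ± 0.10, adjusted p = 2.933e-19), and LSM11 at 5.93 ± 1.245 and 20.97 ± 1.63 CPM in the same order (log2FC -1.84 ± 0.16, adjusted p = 3.701e-16). HINFP, an activator of H4 genes, fell as well (log2FC -1.35 ± 0.09, adjusted p = 9.734e-20). SLBP rose, with 310, 307 and 321 CPM in DMSO at 24 h, against 209.6, 208 and 199.5 CPM at T0 (log2FC 0.60 ± 0.05, adjusted p = 1.627e-15), and so did SRRT (ARS2), which links the cap-binding complex to 3′ end formation (log2FC 1.18 ± 0.06, adjusted p = 1.28e-27).

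**Figure D4:**
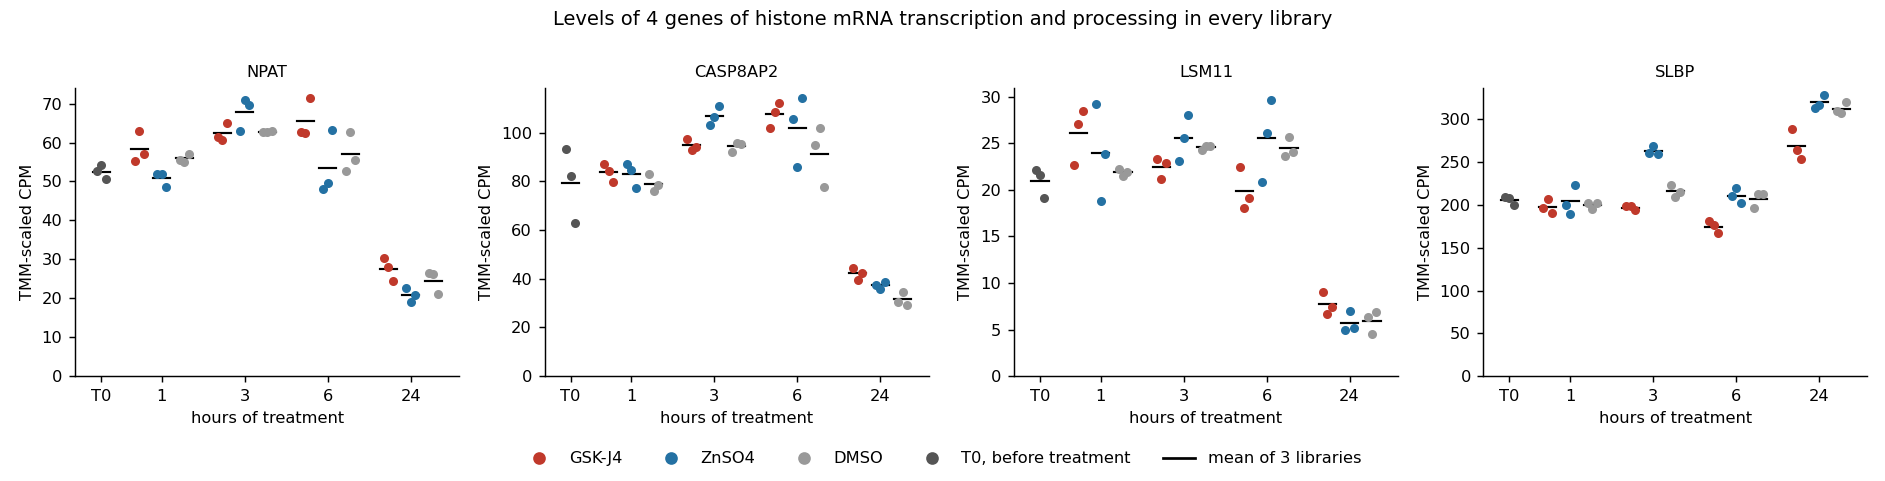
TMM-scaled CPM of NPAT, CASP8AP2, LSM11 and SLBP in each of 39 libraries, with T0 and the hours of treatment on the x axis and GSK-J4, ZnSO4 and DMSO from left to right at each time; lines are means of 3 libraries. At 24 h NPAT, CASP8AP2 and LSM11 lie below all earlier libraries in every arm, and SLBP is lower with GSK-J4 than with DMSO at 6 h and 24 h.

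The replication-independent histone variants were higher in DMSO at 24 h in 9 of 11 tested genes and lower in 0 (median log2FC 0.69), against 30.5% and 32.7% of all genes, shares that also stand beside the next lists. H1FX, encoding H1.X, had 632.5, 632.3 and 685 CPM in DMSO at 24 h, against 63.5, 64.9 and 61.3 CPM at T0 (log2FC 3.36 ± 0.07, adjusted p = 1.842e-46). H3F3B, a gene for H3.3, had 704, 715.5 and 729.7 CPM in DMSO at 24 h, against 253, 218 and 194 CPM at T0 (log2FC 1.69 ± 0.06, adjusted p = 1.083e-35). Neither gene's groups overlapped. Histone chaperones were higher in 9 and lower in 4 of 16 genes (median log2FC 0.15), and NASP, which binds H3 and H4 in the cytoplasm and nucleus, was higher (log2FC 0.91 ± 0.05, adjusted p = 7.68e-25). Of 22 S phase and replication genes 12 were higher and 3 lower (median log2FC 0.32), including the clamp gene PCNA (0.72 ± 0.05, adjusted p = 1.394e-20) among those higher and GINS1, of the replicative helicase, among those lower (-2.15 ± 0.08, adjusted p = 8.818e-33).

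GSK-J4 was compared with DMSO of the same time. At 1 h 0 of the 14 members passed the edgeR test (0 at an unadjusted p under 0.05, 0 by DESeq2), against 0.104% of all genes called, and at 3 h 0 of 14 passed (0 unadjusted, 0 by DESeq2), against 2.38%. At 6 h 3 members were higher (21.43% of the 14) and 0 lower, against 9.83% of all genes higher and 10.5% lower. At 24 h 0 were higher and 4 lower (28.57%), against 15.2% of all genes higher and 16.8% lower. Over 14 genes these shares stand only a few genes apart from those of all genes, and that gap was not tested. With library totals the split over all genes was 1791 higher and 1117 lower at 6 h (1422 and 1525 with TMM factors), and 3256 and 1526 at 24 h (2205 and 2424), with 3 members called at each time.

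The 3 genes higher with GSK-J4 at 6 h were an H2A, an H2B and an H4 gene. HIST1H2AC had 76.7, 67.7 and 68.85 CPM with GSK-J4 at 6 h, against 61.7, 61.5 and 48.9 CPM with DMSO (log2FC 0.31 ± 0.09, adjusted p = 0.00519). HIST1H4H (ENSG00000158406) had 11.45, 12.1 and 12.9 CPM with GSK-J4, against 8.53, 8.09 and 9.34 CPM with DMSO (log2FC 0.48 ± 0.17, adjusted p = 0.04045). HIST1H2BD (ENSG00000158373) had 11.2, 9.47 and 11.9 CPM with GSK-J4, against 7.79, 8.26 and 7.60 CPM with DMSO (log2FC 0.45 ± 0.17, adjusted p = 0.0454). In all 3 the groups did not overlap, but these calls were fragile. HIST1H4H lost its call without any of the 6 libraries (adjusted p 0.0529 to 0.115), HIST1H2BD without any but GSK-J4 replicate 2 (up to 0.145), and HIST1H2AC without DMSO replicate 3 or GSK-J4 replicate 1 (log2FC down to 0.21, adjusted p up to 0.110). By DESeq2 1 of the 3 was called.

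At 24 h the 4 genes lower with GSK-J4 were all H2B genes. HIST1H2BK had 166, 160.2 and 160.5 CPM with GSK-J4, against 191, 195 and 203 CPM with DMSO (log2FC -0.27 ± 0.07, adjusted p = 0.000809). HIST1H2BC had 27.1, 25.4 and 27.5 CPM with GSK-J4, against 33.8, 40.3 and 40.7 CPM with DMSO (log2FC -0.52 ± 0.12, adjusted p = 0.0004). HIST1H2BJ (ENSG00000124635) had 5.03, 5.56 and 5.47 CPM with GSK-J4, against 9.91, 7.88 and 8.92 CPM with DMSO (log2FC -0.73 ± 0.22, adjusted p = 0.00641). All GSK-J4 libraries lay below all DMSO libraries in these 3 genes, and the calls held without each library in turn. HIST1H2BD had 7.19, 8.53 and 10.4 CPM with GSK-J4, against 12.1, 12.1 and 12.2 CPM with DMSO (log2FC -0.48 ± 0.16, adjusted p = 0.0169), a call lost without GSK-J4 replicate 1 (log2FC -0.36, adjusted p = 0.119) and with library totals (adjusted p = 0.0588), a scaling that moved the median of all genes to 0.11.

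The other H2B genes tested did not follow at 24 h. HIST2H2BE had 35.6, 33.01 and 44.0 CPM with GSK-J4 and 35.3, 33.1 and 37.9 CPM with DMSO, which overlapped (log2FC 0.09 ± 0.11, adjusted p = 0.596). HIST1H2BN overlapped too (log2FC -0.16 ± 0.21, adjusted p = 0.61). The H1 gene HIST1H1C stood at 216 ± 17.7 CPM with GSK-J4 and 225.5 ± 14.15 CPM with DMSO (SD, n = 3 each; log2FC -0.06 ± 0.08, adjusted p = 0.616), and HIST1H2AC at 82.2 ± 4.93 and 77.7 ± 3.79 CPM (log2FC 0.08 ± 0.08, adjusted p = 0.469).

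ZnSO4 was set against DMSO in the same way. At 1 h 0 of 14 members passed edgeR's test (1 at an unadjusted p under 0.05, 0 by DESeq2), against 0.678% of all genes. At 3 h 1 was higher (7.143% of the 14) and 0 lower, against 6.59% and 4.16% of all genes, so the share was that of all genes. With library totals, 758 genes were higher and 947 lower at 3 h (953 and 602 with TMM factors) and 0 members passed. At 6 h 4 were higher (28.57%) and 0 lower, against 4.81% and 4.51%, and at 24 h 3 were higher (21.43%) and 0 lower, against 3.98% and 5.58%. One of those 3, HIST2H2AC, had entered the tests through these very ZnSO4 libraries, and of the 12 members that passed the filter through earlier libraries 2 were higher (16.67%) and 0 lower. GSK-J4 and ZnSO4 were set against the same DMSO libraries, so their values are not independent.

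The gene higher with ZnSO4 at 3 h was HIST1H2BN, with 3.79, 4.61 and 6.54 CPM with ZnSO4, against 3.38, 2.80 and 2.245 CPM with DMSO (log2FC 0.81 ± 0.28, adjusted p = 0.0489). The groups did not overlap. The call was lost by DESeq2, with RLE factors, with library totals, with no filter and without any library but ZnSO4 replicate 1 (log2FC 0.56 to 0.97, adjusted p up to 0.356).

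At 6 h the 3 genes with most counts and HIST1H2BD were higher with ZnSO4. HIST1H2AC had 79.1, 85.4 and 90.0 CPM with ZnSO4, against 61.7, 61.5 and 48.9 CPM with DMSO (log2FC 0.57 ± 0.09, adjusted p = 1.475e-06). HIST1H2BK had 151, 167 and 157 CPM with ZnSO4, against 128, 131.5 and 122 CPM with DMSO (log2FC 0.31 ± 0.07, adjusted p = 0.00116). HIST1H2BD had 10.4, 16.6 and 15.4 CPM with ZnSO4, against 7.79, 8.26 and 7.60 CPM with DMSO (log2FC 0.83 ± 0.16, adjusted p = 0.000181). These 3 did not overlap and held without each library in turn. HIST1H1C had 111, 127 and 113 CPM with ZnSO4, against 93.35, 103 and 79.0 CPM with DMSO (log2FC 0.35 ± 0.09, adjusted p = 0.00691). It did not overlap either, and its call was lost without DMSO replicate 3 or ZnSO4 replicate 2 (log2FC down to 0.25, adjusted p up to 0.1125). HIST1H4H had 12.5, 11.9 and 12.5 CPM with ZnSO4, against 8.53, 8.09 and 9.34 CPM with DMSO, without overlap, and did not pass (log2FC 0.51 ± 0.18, adjusted p = 0.0534). As shares of the library total, all members together took 412, 455 and 439 CPM with ZnSO4 at 6 h, against 341, 348 and 299 with DMSO.

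At 24 h the genes higher with ZnSO4 were of H1 and H2A, and no H2B gene passed. HIST1H1C had 303, 299 and 323.5 CPM with ZnSO4, against 215, 220.0 and 242 CPM with DMSO (log2FC 0.45 ± 0.08, adjusted p = 2.96e-05), with no overlap and a call that held without each library. HIST1H2AC had 78.8, 104 and 111.5 CPM with ZnSO4, against 73.3, 80.35 and 79.3 CPM with DMSO. ZnSO4 replicate 1 lay within the DMSO range, and the call (log2FC 0.34 ± 0.08, adjusted p = 0.0028) was lost without ZnSO4 replicate 3 (log2FC 0.25, adjusted p = 0.0757). HIST2H2AC (ENSG00000184260) had 3.00, 2.33 and 2.60 CPM with ZnSO4, against 1.49, 0.258 and 0.939 CPM with DMSO, on 35 and 19 counts (log2FC 1.55 ± 0.48, adjusted p = 0.0267). The groups did not overlap, the gene had passed the filter through those ZnSO4 libraries, and its call was lost with no filter (adjusted p = 0.1525) and without any library but DMSO replicate 1 (log2FC 1.08 to 2.17). Without ZnSO4 replicate 3 the number of calls was 1.

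**Figure D5:**
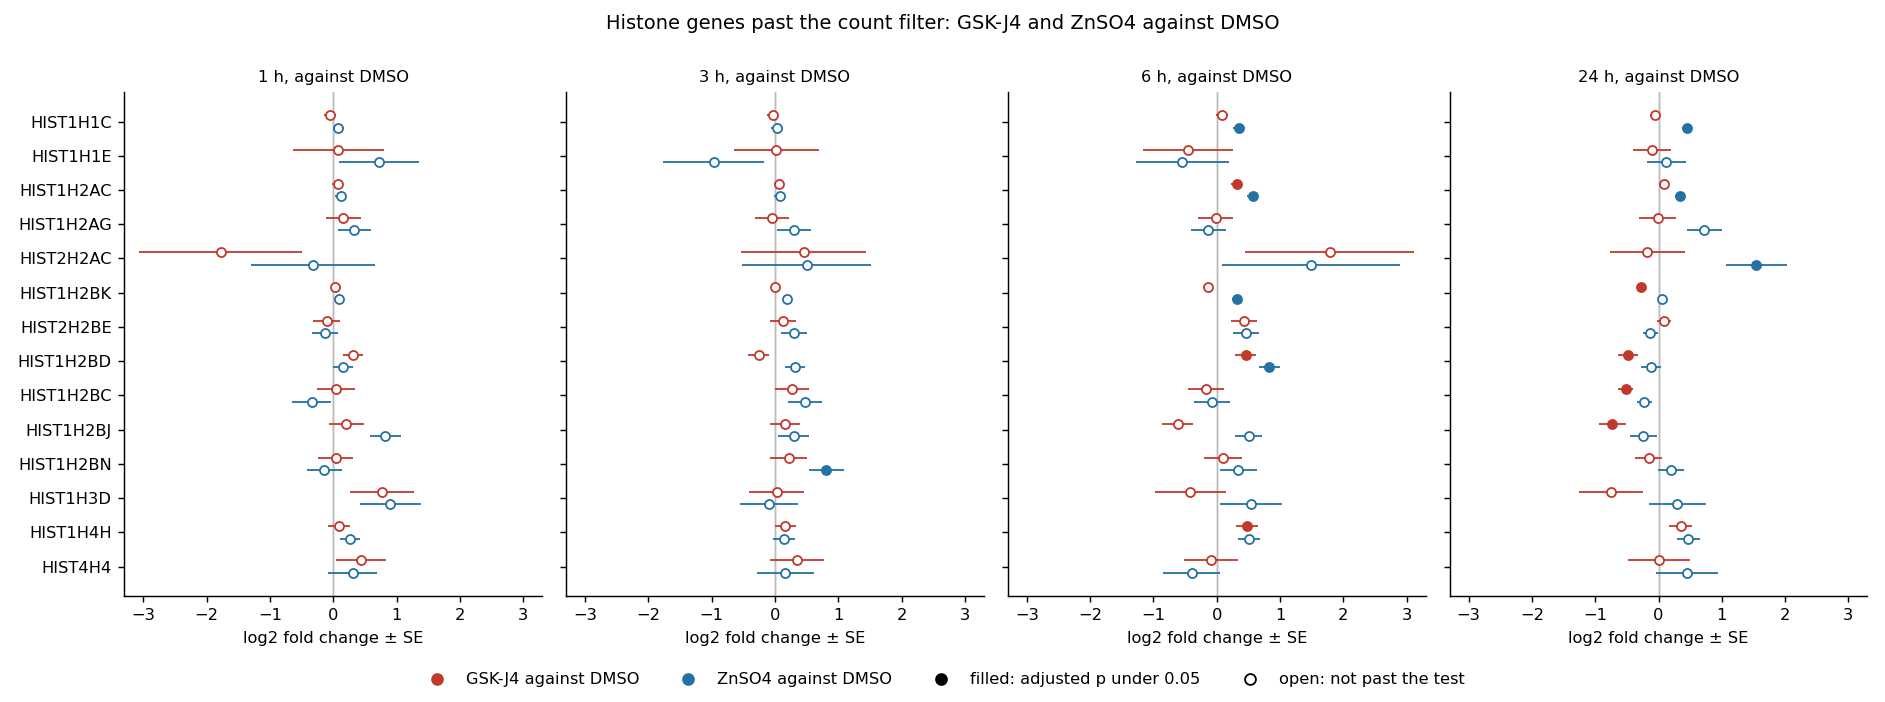
Log2 fold change ± SE of the 14 members for GSK-J4 against DMSO (red) and ZnSO4 against DMSO (blue) at 1, 3, 6 and 24 h; filled points had an adjusted p under 0.05, and both treatments share their DMSO libraries. At 6 h the filled points lie right of 0 for both treatments, and at 24 h those of GSK-J4 lie left of 0, at -0.27 to -0.73, in H2B genes.

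The agents were then compared with each other at each time. At 1 h 0 of 14 members passed edgeR's test (1 at an unadjusted p under 0.05, 0 by DESeq2), against 0.664% of all genes. At 3 h 0 were higher and 1 lower (7.143% of the 14) with GSK-J4 than with ZnSO4, against 3.99% of all genes higher and 6.12% lower, which is near the share of all genes. At 6 h 0 were higher and 4 lower (28.57%), against 8.53% and 9.88%, and at 24 h 0 were higher and 4 lower (28.57%), against 12% and 12.5%. Of the 12 members that passed the filter through earlier libraries, which leaves out HIST2H2AC, 3 were lower at 24 h. With library totals the split over all genes was 1270 higher and 638 lower at 3 h (577 and 885 with TMM factors), 1528 and 1181 at 6 h (1233 and 1428) and 2447 and 1229 at 24 h (1734 and 1812), and the members lower were then 1, 2 and 3.

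Lower with GSK-J4 at 3 h was HIST1H2BD, with 7.61, 8.19 and 7.50 CPM with GSK-J4, against 13.5, 10.4 and 11.2 CPM with ZnSO4, without overlap (log2FC -0.57 ± 0.15, adjusted p = 0.00477). At 6 h HIST1H2BK had 122, 119.3 and 102.7 CPM with GSK-J4, against 151, 167 and 157 CPM with ZnSO4 (log2FC -0.45 ± 0.07, adjusted p = 1.057e-06). HIST1H2BJ had 3.58, 3.79 and 5.30 CPM with GSK-J4 at 6 h, against 8.11, 10.4 and 8.69 CPM with ZnSO4 (log2FC -1.12 ± 0.24, adjusted p = 0.000239). GSK-J4 lay below ZnSO4 in all libraries of these genes, and these calls held without each library. HIST1H1C and HIST1H2AC were also lower with GSK-J4 at 6 h (log2FC -0.27 ± 0.09 and -0.25 ± 0.08, adjusted p = 0.0304 and 0.0268), and both calls were lost with library totals (adjusted p = 0.0573 and 0.0568) and without GSK-J4 replicate 2 or ZnSO4 replicate 2, HIST1H2AC also without replicate 3 of either.

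At 24 h the lower genes with GSK-J4 were HIST1H1C, HIST1H2AC, HIST2H2AC and HIST1H2BK. HIST1H1C had 237, 209 and 203.7 CPM with GSK-J4, against 303, 299 and 323.5 CPM with ZnSO4 (log2FC -0.51 ± 0.08, adjusted p = 7.64e-07). HIST1H2BK had 166, 160.2 and 160.5 CPM with GSK-J4, against 195, 195 and 225 CPM with ZnSO4 (log2FC -0.34 ± 0.07, adjusted p = 0.000114). HIST2H2AC had 0.899, 0.556 and 0.883 CPM with GSK-J4, against 3.00, 2.33 and 2.60 CPM with ZnSO4, on 13 and 35 counts (log2FC -1.72 ± 0.52, adjusted p = 0.00916). None of these 3 overlapped, and their calls held without each library, although HIST2H2AC had passed the count filter through these ZnSO4 libraries alone. HIST1H2AC had overlapping groups (log2FC -0.26 ± 0.08, adjusted p = 0.0157), and its call was lost with library totals (adjusted p = 0.0894) and without GSK-J4 replicate 2 or ZnSO4 replicates 2 or 3 (log2FC -0.17 to -0.39).

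Whether a treatment effect differed between 24 h and 6 h was tested as an interaction. For GSK-J4, 0 members had a higher and 1 a lower effect at 24 h than at 6 h, against 2.72% and 3.04% of all genes, and for ZnSO4 likewise 0 and 1, against 0.111% and 0.297%. With library totals the GSK-J4 split over all genes was 550 higher and 292 lower (393 and 439 with TMM factors). The gene was HIST1H2BD in both. Its GSK-J4 effect was -0.48 ± 0.16 at 24 h and 0.45 ± 0.17 at 6 h, a difference of -0.93 ± 0.23 (adjusted p = 0.0066), which held in all alternatives. Its ZnSO4 effect was -0.11 ± 0.16 at 24 h and 0.83 ± 0.16 at 6 h, a difference of -0.95 ± 0.23 (adjusted p = 0.0315), which was lost with no filter (adjusted p = 0.0751), with only those groups in the fit (0.104) and without 10 of the 12 libraries in turn, all but ZnSO4 6 h replicate 1 and ZnSO4 24 h replicate 3 (adjusted p up to 0.157). Both differences rest on the same DMSO libraries, in which the gene had 12.1, 12.1 and 12.2 CPM at 24 h and 7.79, 8.26 and 7.60 CPM at 6 h.

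Of the 17 genes of histone mRNA transcription and processing, 1 was higher and 1 lower with GSK-J4 than with DMSO at 6 h, against 9.83% and 10.5% of all genes, and 2 were higher and 5 lower at 24 h, against 15.2% and 16.8%. The median log2FC at 24 h was -0.01 beside 0.02 over all genes. SLBP had 181, 176 and 167 CPM with GSK-J4 at 6 h, against 196.5, 213 and 213 CPM with DMSO (log2FC -0.24 ± 0.06, adjusted p = 0.00072), and 269 ± 17.99 CPM with GSK-J4 at 24 h, against 313 ± 7.205 CPM with DMSO (SD, n = 3 each; log2FC -0.22 ± 0.05, adjusted p = 0.000789). With ZnSO4 at 3 h 3 of 17 were higher, against 6.59% of all genes, SLBP among them (log2FC 0.28 ± 0.05, adjusted p = 6.94e-05), and at 6 h and 24 h SLBP did not pass (0.02 ± 0.06 and 0.03 ± 0.05, adjusted p = 0.875 and 0.782). CASP8AP2 was higher with GSK-J4 than with DMSO at 6 h (log2FC 0.23 ± 0.08, adjusted p = 0.04005) and at 24 h (0.42 ± 0.11, adjusted p = 0.00189). NPAT did not pass against DMSO with either agent at 6 h or 24 h (log2FC -0.25 to 0.20), nor did LSM11 (-0.29 to 0.39).

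Of the other lists, S phase and replication genes differed most from DMSO with GSK-J4 at 24 h, when 4 of 22 were higher and 13 lower (median log2FC -0.17), against 15.2% and 16.8% of all genes. CCNA2, the S phase cyclin, was at 85.1 ± 8.56 CPM with GSK-J4 and 129 ± 7.14 CPM with DMSO (SD, n = 3 each; log2FC -0.60 ± 0.08, adjusted p = 1.281e-08). With ZnSO4 0 of the 22 were called in either direction at 24 h, and 3 were higher and 0 lower at 6 h, against 4.81% and 4.51% of all genes. Of 16 chaperone genes 1 was higher and 4 lower with GSK-J4 at 24 h, among them NASP (log2FC -0.33 ± 0.05, adjusted p = 1.919e-07), and 2 were higher and 1 lower with ZnSO4. Of 11 variant genes 3 were higher and 2 lower with GSK-J4 at 24 h, and 3 were higher and 0 lower with ZnSO4. The shares of all genes at 24 h were 15.2% higher and 16.8% lower with GSK-J4 and 3.98% and 5.58% with ZnSO4, so that on 11 to 16 genes the GSK-J4 counts of these 2 lists stand close to those of all genes. H3F3B was at 961 ± 36.1 CPM with ZnSO4 and 716 ± 13.1 CPM with DMSO at 24 h (SD, n = 3 each; log2FC 0.42 ± 0.05, adjusted p = 1.465e-08). ASF1A, a chaperone of H3 and H4, was higher with ZnSO4 at 3 h, at 112 ± 6.66 CPM, against 74.0 ± 3.39 CPM with DMSO (SD, n = 3 each; log2FC 0.61 ± 0.08, adjusted p = 2.639e-08). HINFP, a transcription factor of H4 genes, was also higher with ZnSO4 at 3 h (log2FC 0.44 ± 0.08, adjusted p = 3.499e-05). H2AFX, whose H2A.X mRNA can also end at a stem-loop, was lower with GSK-J4 at 6 h (log2FC -0.49 ± 0.06, adjusted p = 3.851e-09) and 24 h (-0.42 ± 0.06, adjusted p = 2.937e-08).

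The 23 members below the filter were too thinly counted to compare. In 5 of them (HIST1H1A, HIST1H2AA, HIST3H2A, HIST3H2BB and HIST2H3PS2) no library held a count, which allows up to 0.2805 CPM in the deepest library and 0.69 CPM in the shallowest. The other 18 held between 3 and 196 counts over the 39 libraries. H2BFS, a near copy of HIST1H2BK on chromosome 21, had most, with 196. HIST2H2AA3 had 61 counts in the 9 libraries at 24 h and 65 in the 30 earlier ones, and HIST1H4C 60 and 63. HIST1H1D, the third H1 gene by level, had 37 counts at 24 h and 106 in the earlier libraries. The next H3 genes by level, HIST1H3J and HIST2H3C, had 8 each at 24 h, and 15 and 7 before. The testis-expressed genes HIST1H1T and HIST1H2BA had 13 and 9 counts in all. No member of H3 other than HIST1H3D passed 0.472 CPM in any library.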

How the data were processed

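RNA-seq libraries of JJN3 cells were deposited by the authors as raw, whole-number read counts per Ensembl gene, 1 column per library, with no normalization. Reads were aligned with HISAT2 2.1.0 to hg19, per the submitters' processing notes; the labels' protocols name Trizol and an NEBNext Ultra RNA kit. No source used here names the counting tool, the annotation, the strand setting or the handling of shared reads. The growth protocol lists 3, 6 and 24 h and not 1 h; the sample labels were followed.

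Of 57773 identifiers 51996 had a symbol in the name table, 342 in GENCODE 29 alone and 5435 in neither. Members were found by symbol, with protein-coding biotype in GENCODE 29. The members, the 4 related lists (67 of 68 genes matched) and the RNAs without a poly(A) tail were chosen with earlier results of these data known.

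Counts of all 39 libraries entered 1 fit in edgeR 4.0.16 (R 4.3.3, limma 3.58.1): filterByExpr with a minimum count of 10, which left 14460 genes, TMM factors, glmQLFit and glmQLFTest, with 26 residual degrees of freedom, and Benjamini-Hochberg adjustment within each of 18 comparisons, called at an adjusted p under 0.05. The biological coefficient of variation was 4.8%. SE is |log2FC| divided by the root of F. The edgeR steps were run on simulated counts for a single comparison, GSK-J4 against DMSO at 24 h, and not for the full fit or the interactions. Levels are CPM (counts in every 1000000) of the TMM-scaled library; sums by type are CPM of the library total. Counts limit precision: 3 counts in a library of 4347745 are 0.69 CPM, and such floors cover counting error only. Named by rule were the 3 members of each type with the highest mean level, the 3 largest rises and falls among called members of a comparison, up to 3 called genes of each related list with the smallest p, and NPAT, SLBP, CASP8AP2 and LSM11; other members and related genes were named after their values were seen. Each result was also computed with DESeq2 1.42.0, in a fit of only the groups compared, with RLE size factors or library totals as scaling, without the filter, and leaving out each library. Stem-loops and overlaps came from GENCODE 29, and promoter windows from RefSeq (GRCh38.p14). As the counts rest on another build, levels were not compared between genes per length.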

Additional observations from a re-analysis of the deposited data

Results flagged for a closer look

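EdgeR's test of the difference itself was read on the log2 scale. The effect of an agent differed between 24 h and 6 h for 1 of 14 members (7.143%) with each agent. With GSK-J4 it also differed for 6 genes of the related lists. Of all genes, 2.72% had a higher and 3.04% a lower GSK-J4 effect at 24 h, and 0.111% and 0.297% a higher and a lower ZnSO4 effect. HIST1H2BD differed for GSK-J4 by -0.9311 and for ZnSO4 by -0.9456, both against the same DMSO libraries. The 6 list genes were all among the 22 S phase and replication genes, 3 with a higher and 3 with a lower GSK-J4 effect at 24 h. Of these the 3 with the smallest p are named, and the GSK-J4 effect differed by 0.6443 for GINS1, by -0.2962 for MCM2 and by -0.3538 for CDT1.

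Outside the protein-coding members, the pseudogene HIST2H2BC held 2988 counts over the 39 libraries, close to the 2999 of HIST2H2BE. Its level was 6.57 to 11.7 CPM (median 9.01) in the 9 libraries at 24 h and 8.98 to 17.6 CPM (median 12.2) in the 30 earlier ones.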

How the results depend on the processing

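No paired analysis was possible because the labels give no replicate numbers that tie libraries across groups. Of 36 member calls 21 held in every alternative, 14 were lost without some library and 12 under another setting; no called value turned its direction, and where a call was lost the cause was not tested. The number of members called changed by more than 1.5 times as follows. For GSK-J4 against DMSO at 6 h, 3 calls became 1 with no filter and 1 with DESeq2. For ZnSO4 against DMSO at 3 h, 1 call became 0 with RLE size factors, library totals, no filter or DESeq2, and 2 with only the groups compared. For GSK-J4 against ZnSO4, 1 call at 3 h became 2 with only the groups compared, and 4 at 6 h became 2 with library totals. For the ZnSO4 effect at 24 h minus 6 h, 1 call became 0 with no filter, with only the groups compared and with DESeq2. Smaller changes were, for DMSO at 24 h against T0, 10 calls that became 8 with library totals or no filter and 9 with DESeq2 or only the groups compared, and, for ZnSO4 against DMSO at 24 h, 3 that became 2 with no filter or DESeq2. DESeq2 gave no adjusted p for part of the members. Among these were HIST2H2AC for ZnSO4 against DMSO at 24 h and HIST1H2BD for the ZnSO4 effect at 24 h minus 6 h. Their losses with DESeq2 were therefore not failed tests. Leaving out 1 library gave 0 to 2 calls for GSK-J4 against DMSO at 6 h and 3 to 4 at 24 h; 0 to 1, 3 to 4 and 1 to 3 for ZnSO4 against DMSO at 3, 6 and 24 h; 2 to 5 and 3 to 4 for GSK-J4 against ZnSO4 at 6 and 24 h; 8 to 10 for DMSO at 24 h against T0; and 0 to 1 for the ZnSO4 effect at 24 h minus 6 h. The lowest counts came without GSK-J4 6 h replicate 1 (0), ZnSO4 24 h replicate 3 (1), and ZnSO4 or GSK-J4 6 h replicate 2 (2). With TMM-scaled library sizes 21 of 78 type sums moved by more than 1 SD and 57 did not.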
